A study of Mus musculus with 6 samples.

Results

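The levels of 7 cell adhesion molecules of the immunoglobulin superfamily were followed: Icam1, Icam2, Vcam1, Alcam, Mcam, Ncam1 and L1cam. They were taken as every probe whose platform gene symbol is 1 of these names, which gave 15 of the 45281 probes on the array, for 7 of 19057 genes with a single symbol. Icam1 and Vcam1 were picked out because their differences between knockout and control arrays passed the threshold in this same comparison, and the other 5 genes were added as relatives. The values of all 7 genes in that comparison are therefore given as a description.

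Transcripts were measured on Illumina bead arrays in Sertoli cells, the somatic cells that nurse germ cells inside the seminiferous tubules. All mice were 6 weeks old, of a mixed C57B6J/129SvEv strain, with 1 floxed and 1 null allele of the retinoblastoma gene (Rb1 flox/-) and a Sox9-GFP label by which the cells were sorted. The 3 cKO arrays carried Amh-Cre in addition, a recombinase under the promoter of the Sertoli cell hormone Amh, and the 3 Control arrays carried no Cre, so that Cre itself and loss of Rb1 cannot be told apart. The controls are heterozygous and hold a single intact copy of Rb1. Whether replicate arrays stand for different animals is not in the labels, and the spread behind each p-value is that among these arrays, which may be technical.

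Immunoglobulin adhesion molecules are membrane proteins with a stalk of immunoglobulin domains outside the cell and a short tail that reaches the actin cortex. Icam1, Icam2 and Vcam1 bind integrins on leukocytes, and inflammatory cytokines induce Icam1 and Vcam1 through NF-kB in many cell types. Alcam, Mcam, Ncam1 and L1cam also join cells to each other, by binding their own kind or other partners. In the testis, Icam1 is known as a component of the junctions that Sertoli cells make with each other and with germ cells, and Ncam1 joins Sertoli cells to early germ cells in the neonatal rat.

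Both Rb1 probes had lower means in cKO, with differences of -1.22 ± 0.32 and -0.98 ± 0.34 log2 units (SE) and adjusted p of 0.399 and 0.668 in limma, and whether they lie inside the deleted part is unknown here. The arrays of cKO replicate 1 and Control replicate 3 stood at the 2 ends of the leading principal component, which took up 58.9% of the variance. Between 43.0% and 53.5% of probes were detected per array. Of 14 Sertoli cell markers tested, 14 had lower means in cKO and none passed. Their mean log2 level was between 9.172 and 9.845 in cKO and between 9.886 and 10.34 in Control. That these means did not overlap rested on Trf, chosen after its values were seen. Trf was at 4.57, 7.77 and 9.97 on cKO replicates 1 to 3, against 9.64, 9.19 and 11.1 on the Control replicates. For 2 of the 14 markers every cKO array was below every Control array, which held for 4.33% of all tested genes. Sox9 was between 11.48 and 11.82 in cKO and between 11.83 and 12.20 in Control. Prm1, a protamine of spermatids, averaged 14.82 in cKO and 14.84 in Control, so transcripts of germ cells were abundant in both groups.

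Icam1, the ligand of the leukocyte integrins LFA-1 and Mac-1, had a single probe, ILMN_2896601, which was detected on all 6 arrays. On the normalised log2 scale its level was 8.25, 8.07 and 8.37 on cKO replicates 1 to 3, against 5.80, 5.82 and 5.41 on Control replicates 1 to 3. Every cKO array was above every Control array, with a gap of 2.25 between the lowest cKO and the highest Control value. The means were 8.23 ± 0.15 in cKO and 5.68 ± 0.23 in Control (SD, n = 3 each), a difference of 2.55 ± 0.26 (SE) or 5.87-fold, with an adjusted p of 0.0325 in limma.

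The scanner intensities behind these values were 306, 325.2 and 376.5 units in cKO, against 80.8, 74.5 and 83.4 in Control, before any background was taken off. The standard error over the beads of the probe was between 2.72% and 3.24% of the intensity in cKO and between 4.38% and 5.71% in Control. These bead errors describe the reading of 1 array and not the spread between samples. Between arrays of the same replicate number the difference was 2.45, 2.25 and 2.96, so it had the same sign in all 3 pairs.

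**Figure D1:**
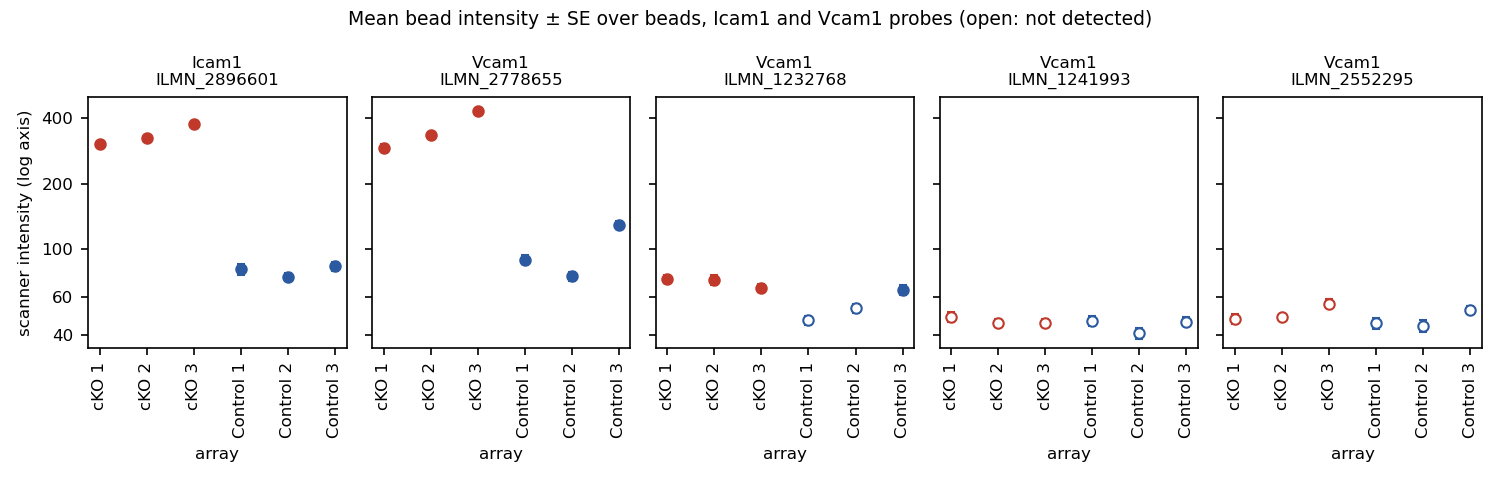
Scanner intensity (log axis, mean over beads, error bars SE over beads) of the Icam1 probe and the 4 Vcam1 probes on each of the 6 arrays, cKO in red and Control in blue, with open symbols where the probe was not detected. The Icam1 probe and the Vcam1 probe ILMN_2778655 lie between 292.4 and 433.7 units in cKO and between 74.5 and 129 units in Control, and the other Vcam1 probes stay between 40.9 and 72.6 units.

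The window upstream of the Icam1 start site is shown because Icam1 had the largest difference of the 7 genes, and that of Alcam because Alcam was detected on all arrays with a difference near 0. The sequences are the 250 bases before the start site in RefSeq, build GRCm38.p6, at chr9:21015690-21015939 on the plus strand for Icam1 and chr16:52453082-52453331 on the minus strand for Alcam. Capitals mark matches to any of the motifs searched on both strands.
Icam1: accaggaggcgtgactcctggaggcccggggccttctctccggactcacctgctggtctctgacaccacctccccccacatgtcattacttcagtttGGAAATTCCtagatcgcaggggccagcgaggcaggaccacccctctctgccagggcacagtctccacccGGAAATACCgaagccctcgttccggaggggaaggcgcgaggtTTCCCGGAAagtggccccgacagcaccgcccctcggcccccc
Alcam: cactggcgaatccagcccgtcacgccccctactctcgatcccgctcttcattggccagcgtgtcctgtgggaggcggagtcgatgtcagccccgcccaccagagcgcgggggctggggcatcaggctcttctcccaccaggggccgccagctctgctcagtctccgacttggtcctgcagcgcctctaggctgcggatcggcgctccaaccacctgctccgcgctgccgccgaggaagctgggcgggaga
The letters searched were GGNNNTTCC for NF-kB, TTCNNNGAA for the STAT element GAS, TGANTCA for AP-1, TTTNNCGC for E2F and TATAAA for the TATA box, and the interferon element ISRE was searched as well. The motifs were chosen with the Icam1 sequence in view. The Icam1 window held the NF-kB letters at 153 to 145 and at 84 to 76 bases before the start, and the GAS letters at 42 to 34 bases, with no overlap between motifs. Of the 32851 windows of this length in the table, 15.7% held the NF-kB letters and 7.02% the GAS letters. The ISRE, AP-1, E2F and TATA letters were in 2.98%, 6.75%, 4.28% and 12.4% of windows and not in that of Icam1. The windows of Alcam, Mcam and L1cam held none of the 6, which says only that these letters are not in these windows. A match is a run of letters and not a measured binding site. The table had windows for 4 of the 7 genes, without Vcam1, Icam2 and Ncam1.

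Vcam1, the ligand of the integrin VLA-4, was covered by 4 probes, which did not give the same picture. Probe ILMN_2778655, annotated to the RefSeq transcript, was at 8.18, 8.12 and 8.60 on cKO replicates 1 to 3, against 6.04, 5.82 and 6.16 on the Control replicates. The groups did not overlap, with a gap of 1.96. Its means were 8.30 ± 0.27 in cKO and 6.01 ± 0.17 in Control (SD, n = 3 each), a difference of 2.29 ± 0.27 (SE) or 4.90-fold, with an adjusted p of 0.0419 in limma. By replicate number the differences were 2.14, 2.29 and 2.44.

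The 3 remaining Vcam1 probes are annotated to cDNA clones. Probe ILMN_1232768 was at 5.55, 5.28 and 5.23 in cKO, against 4.49, 4.87 and 4.95 in Control, and was detected on 3 cKO arrays and 1 Control array. Its groups did not overlap either, but its difference of 0.58 ± 0.26 had an adjusted p of 0.766 in limma. Probes ILMN_1241993 and ILMN_2552295 were detected on none of the 6 arrays, and lay between 4.43 and 4.86 in cKO and between 4.42 and 4.62 in Control. The result for Vcam1 therefore rests on 1 of its 4 probes.

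In all, 10 of the 15 probes, for 6 of the 7 genes, were detected on at least 3 arrays and were tested. Of these, 2 were called higher at an adjusted p under 0.05 and 0 lower (limma), where 0.142% of the 21805 tested probes were called higher and 0% lower. For 3 of the 10, every cKO array was above every Control array, which held for 8.04% of all tested probes, and for 0 every cKO array was below every Control array, which held for 4.01%. Because Icam1 and Vcam1 were chosen on this comparison, nothing is read from these counts.

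Both calls sat close to the threshold. With the replicate number as a block, the adjusted p was 0.0847 for Icam1 and 0.0835 for Vcam1, and with any 1 of the 6 arrays left out it ran from 0.064 to 0.231 for Icam1 and from 0.0787 to 0.251 for Vcam1, while the differences stayed between 2.42 and 2.63 and between 2.14 and 2.39. With no filter on dim probes neither was called (0.0634 and 0.115), and Vcam1 was also not called with an offset of 50 (0.0591), without background correction (0.0517) or with the deposited log2 values (0.0532).

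**Figure D2:**
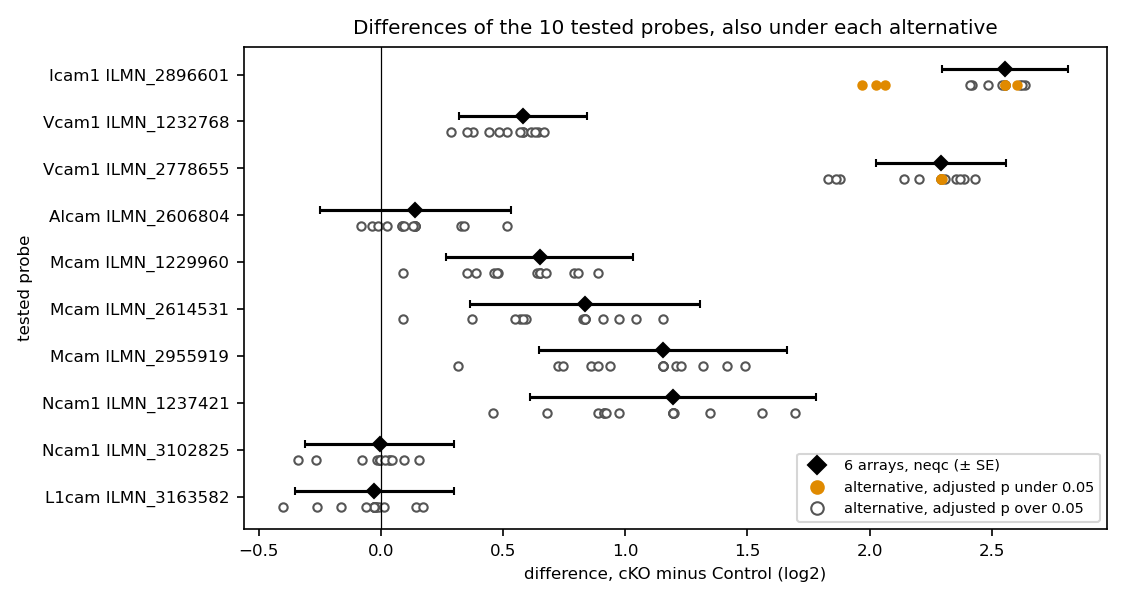
Difference between cKO and Control on the log2 scale for each of the 10 tested probes: diamonds with SE bars for the comparison of all 6 arrays, and circles for the alternative settings, filled where the adjusted p was under 0.05. Icam1 stayed between 1.97 and 2.63 and the Vcam1 probe ILMN_2778655 between 1.83 and 2.43. The probes of Alcam and L1cam and the Ncam1 probe ILMN_3102825 fell on both sides of 0.

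Icam2, a constitutive ligand of LFA-1 found mainly on endothelium and leukocytes, was near background. Its probe was at 6.22, 4.86 and 5.56 on cKO replicates 1 to 3, against 5.08, 4.78 and 4.61 on the Control replicates, and it was detected on 2 cKO arrays and no Control array. The groups overlapped, and it was not tested. Each Control array was set to the higher of its own value and its lowest detected value. Against these, the mean of the 3 cKO arrays was 1.42-fold higher. That mean includes cKO replicate 2, where the probe was not detected, so the value is not a strict bound.

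Mcam, also called CD146, an adhesion receptor of endothelial and smooth muscle cells, had 3 probes that followed each other. Probe ILMN_2955919 was at 8.17, 6.78 and 6.98 on cKO replicates 1 to 3, against 6.83, 6.31 and 5.34 on the Control replicates. The highest Control array reached just above the lowest cKO array, so the groups overlapped. The difference was 1.15 ± 0.51, with an adjusted p of 0.766 in limma and a 95% interval from -0.03 to 2.34. The other 2 probes gave 0.83 ± 0.47 and 0.65 ± 0.38 and overlapped as well.

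On all 3 Mcam probes the highest value was that of cKO replicate 1 and the lowest that of Control replicate 3, the arrays at the 2 ends of the first principal component. Without both arrays the 3 differences were 0.32, 0.089 and 0.091. Leaving out the highest cKO array and the lowest Control array had to lower the Mcam differences. For Icam1 and the Vcam1 probe ILMN_2778655 the differences without these arrays were 2.41 and 2.43, with adjusted p of 0.0824 and 0.104 in limma. On these probes cKO replicate 1 was not the highest cKO array, so no contrast with Mcam is drawn.

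Ncam1, the neural cell adhesion molecule, had 4 probes that also differed. Probe ILMN_1237421 was at 8.34, 7.01 and 6.58 on cKO replicates 1 to 3, against 7.11, 5.56 and 5.67 on the Control replicates. Replicate 1 was the highest array in both groups, and each cKO array was above the Control array of its own number, by 1.23, 1.45 and 0.91. The groups nevertheless overlapped, and the difference of 1.20 ± 0.58 had an adjusted p of 0.766 in limma. Without cKO replicate 1 and Control replicate 3 it was 0.46.

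Probe ILMN_3102825, annotated to the same Ncam1 transcript record, was between 5.25 and 5.50 in cKO and between 4.84 and 5.68 in Control, with a difference of -0.0055 ± 0.31 and a 95% interval from -0.72 to 0.71. Probe ILMN_2722864 was detected on cKO replicate 1 alone, where it stood at 6.61, against 4.38 to 4.85 in Control. Probe ILMN_1254093 was detected on no array. Of the detected Ncam1 probes, only the first thus showed its 3 paired differences on 1 side of 0 on arrays that all detected it.

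Alcam, a homophilic adhesion molecule that also binds the lymphocyte receptor CD6, was detected on all 6 arrays. It was at 6.78, 6.44 and 6.05 on cKO replicates 1 to 3, against 5.97, 5.84 and 7.03 on the Control replicates. Control replicate 3 was the highest of all 6 arrays and the groups overlapped. The difference was 0.14 ± 0.39, with a 95% interval from -0.78 to 1.06.

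L1cam, a neural adhesion molecule, was at 5.81, 5.60 and 5.19 on cKO replicates 1 to 3, against 5.63, 5.95 and 5.09 on the Control replicates. The arrays of the groups were interleaved. The difference was -0.026 ± 0.32, with a 95% interval from -0.79 to 0.73.

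**Figure D3:**
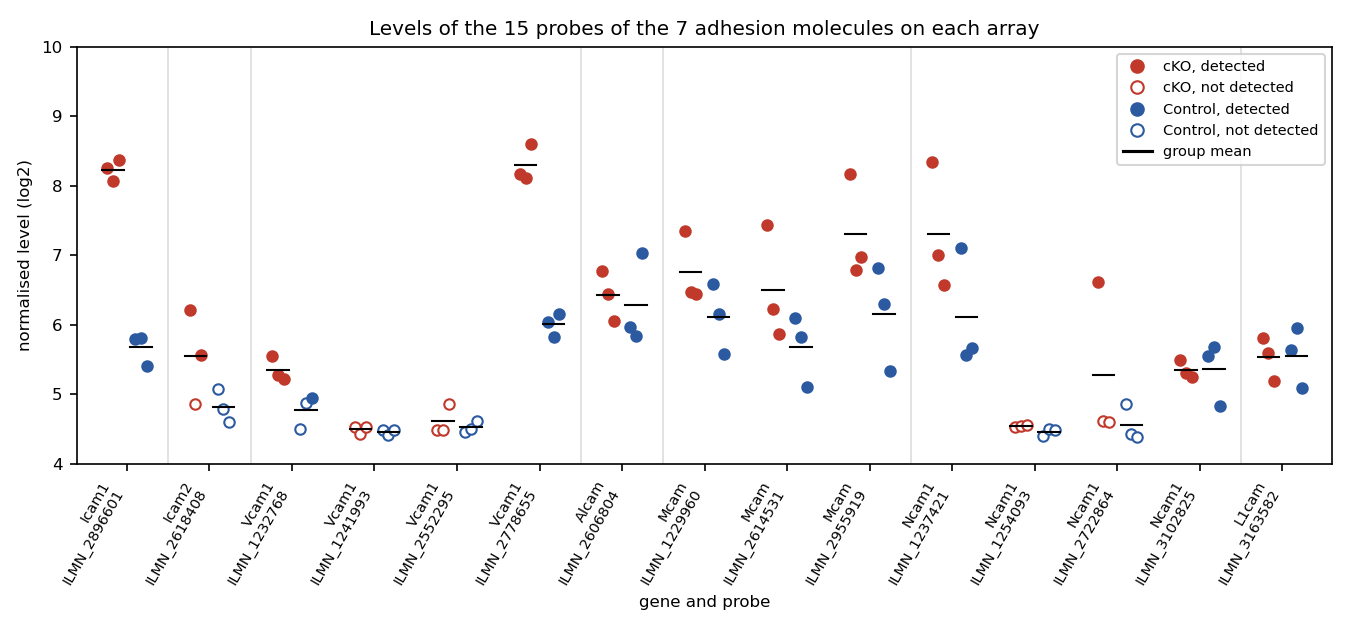
Normalised level (log2) of each of the 15 probes on each array, cKO in red left of Control in blue, replicates 1 to 3 from left to right within a group, with open circles for arrays where the probe was not detected and bars for group means. The groups stand well apart for Icam1 (8.23 and 5.68) and the Vcam1 probe ILMN_2778655 (8.30 and 6.01), and the Mcam probes and the Ncam1 probe ILMN_1237421 spread widely within each group.

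None of the other family members tested was called. Of 39 other immunoglobulin adhesion molecules on a chosen list, 27 genes were tested by their brightest probe, 0 were called in either direction (at an unadjusted p under 0.05 in limma, 3 were higher and 2 lower), and 16 of the 27 differences were positive. Over all 12277 tested genes 61.3% of differences were positive, and at that unadjusted p 5.96% of genes were higher and 1.81% lower. The median difference was 0.29, against 0.12 over all tested genes, of which 0.195% were called higher and 0% lower. Jam2, a junctional adhesion molecule, differed by 1.03 ± 0.31, Cntn1 by 0.95 ± 0.30 and Esam, an endothelial adhesion molecule, by 1.31 ± 0.45. Cadm1, which links Sertoli and germ cells, differed by -0.92 ± 0.34. None of the 4 passed, with adjusted p between 0.557 and 0.704 in limma. The list median was 0.032 without cKO replicate 1 and Control replicate 3.

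Integrins and other binding partners of the 7 genes were tested for 11 of 18 genes, with 0 called higher or lower (2 were higher and none lower at an unadjusted p under 0.05 in limma), 11 of 11 positive differences and a median of 0.32. That median ran from 0.21 to 0.47 with 1 array left out and was 0.067 without cKO replicate 1 and Control replicate 3. The chains of the leukocyte integrins that bind Icam1, namely Itgal, Itgam, Itgax and Itgb2, were detected on 0 of the 6 arrays. The Vcam1-binding integrin VLA-4 is made of Itga4 and Itgb1. Itga4 averaged 5.52 in cKO and 5.45 in Control, with a difference of 0.061 ± 0.29, and Itgb1 averaged 6.51 in cKO and 6.30 in Control, with a difference of 0.21 ± 0.33.

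Itga9, the alpha chain of another integrin that binds Vcam1, gave the largest difference of the binding partners. It was at 9.95, 8.83 and 8.83 on cKO replicates 1 to 3, against 6.39, 6.20 and 5.55 on the Control replicates, with no overlap; groups lay apart with cKO higher for 9.56% of the tested genes and with cKO lower for 4.33%. The difference was 3.16 ± 0.40, with an adjusted p of 0.0514 in limma, and it was called in 4 of 15 alternatives. These were median scaling (0.034), the deposited log2 values (0.0455), probes detected on all 6 arrays (0.0293) and 1 probe per gene (0.0192), whereas the replicate block gave 0.0835 and the alternative without a filter on dim probes 0.351. Nrp1, a coreceptor of L1cam, differed by 1.30 ± 0.37 with an adjusted p of 0.472. Lama4, a laminin chain that binds Mcam, and Itgad, an integrin alpha chain, differed by 0.42 ± 0.23 and 0.58 ± 0.40, each with an adjusted p of 0.766.

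Linkers between the membrane and the actin cortex were tested for 10 of 14 genes, with 0 called (1 higher at an unadjusted p under 0.05), 3 positive differences and a median of -0.23, which ran from -0.39 to -0.072 with 1 array left out. Actn1, an actinin that binds the tail of Icam1, was at 9.47, 8.45 and 9.04 on cKO replicates 1 to 3, against 7.06, 6.93 and 6.63 on the Control replicates. Its difference of 2.12 ± 0.33 had an adjusted p of 0.0969 in limma. It was called in 1 of 15 alternatives, with 1 probe per gene (0.0473), and its adjusted p reached 0.372 in the others, with 0.137 under the replicate block. Flna, a filamin, differed by 0.86 ± 0.38, Ank2, an ankyrin of the kind that anchors L1cam, by -0.93 ± 0.44, and Cttn, cortactin, by -0.82 ± 0.58, each with an adjusted p of 0.766. The Cttn difference was -0.11 without Control replicate 3.

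Enzymes that shed these proteins or add polysialic acid to Ncam1 were tested for 8 of 8 genes, with 0 called (1 higher at an unadjusted p under 0.05), 5 positive differences and a median of 0.090. The sign of that median turned on single arrays: it was -0.14 without Control replicate 1, -0.086 without cKO replicate 2 and 0.37 without Control replicate 2. The metalloproteinase Mmp9 differed by 1.55 ± 0.29, with an adjusted p of 0.152 in limma. The sheddase Adam17 differed by -0.22 ± 0.27, and the polysialyltransferases St8sia4 and St8sia2 by 0.37 ± 0.25 and -0.33 ± 0.45, with adjusted p from 0.766 to 0.824.

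Cytokines, receptors and transcription factors upstream of Icam1 and Vcam1 were tested for 15 of 24 genes, with 0 called (4 were higher and none lower at an unadjusted p under 0.05 in limma), 8 positive differences and a median of 0.086, which was -0.17 without Control replicate 1 and -0.057 without Control replicate 2. Irf1, an interferon-induced transcription factor, was at 11.81, 11.02 and 11.64 on cKO replicates 1 to 3, against 8.22, 9.46 and 10.05 on the Control replicates. Its difference was 2.25 ± 0.49, that of Cebpb 1.87 ± 0.41, and those of the NF-kB subunits Relb and Nfkb2 1.99 ± 0.44 and 1.11 ± 0.40. None of the 4 passed, with adjusted p between 0.254 and 0.70 in limma. Another NF-kB subunit, Rela, and the inhibitor Nfkbia had differences of -0.22 ± 0.28 and -0.18 ± 0.58 (0.35 at a second Nfkbia probe) and were chosen after their values were seen. The cytokines Tnf and Ifng were detected on 0 of the 6 arrays and Il1b on 1, while Il1a was detected on all 6 and differed by 0.71 ± 0.52 with an adjusted p of 0.766.

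Other leukocyte adhesion genes were tested for 8 of 12, with 0 called (2 higher at an unadjusted p under 0.05), 7 positive differences and a median of 0.43, which ran from 0.16 to 0.74 with 1 array left out and was 0.11 without cKO replicate 1 and Control replicate 3. The sialomucin Cd34 and the endothelial amine oxidase Aoc3 differed by 1.13 ± 0.37 and 1.24 ± 0.45, with adjusted p of 0.624 and 0.701 in limma. Cd44, a hyaluronan receptor, and Cd99l2 differed by 0.70 ± 0.40 and -0.57 ± 0.37, each with an adjusted p of 0.766. The endothelial selectins Sele and Selp, which cytokines induce beside Icam1 and Vcam1, were detected on 0 arrays.

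**Figure D4:**
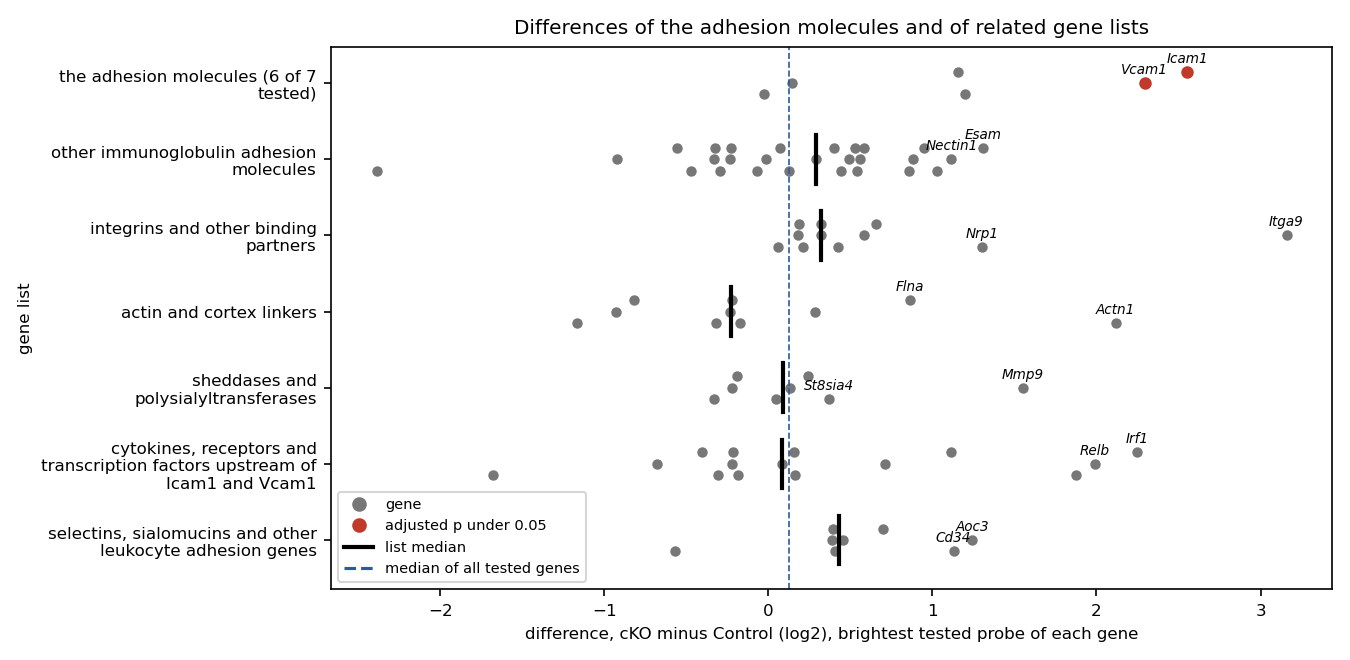
Difference between cKO and Control (log2) at 1 probe per gene, the brightest tested, for the adhesion molecules and 6 related lists, with red dots for an adjusted p under 0.05, black bars for list medians and a dashed line at the median of all tested genes (0.12). Icam1 and Vcam1 are the genes in red, and Itga9 at 3.16 lies farthest to the right.

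Icam1, Icam2, Vcam1 and Mcam are also carried by endothelium, Vcam1 by some stromal cells, and Ncam1 by early germ cells, so markers of other testis cells are given beside them. In RNA from sorted cells, fewer cells of a type and less RNA per cell cannot be told apart. Of 13 endothelial markers, which include Esam, Pecam1 and Cdh5 of the lists above, 10 were tested and 10 had higher means in cKO, 5 of them at an unadjusted p under 0.05 and 0 after adjustment in limma. Their mean log2 level was between 6.67 and 7.79 in cKO and between 5.67 and 6.29 in Control, and the log2 of their summed level was between 10.82 and 12.17 in cKO and between 9.08 and 9.83 in Control. Robo4, a receptor of endothelial cells, held between 48.6% and 61.3% of that sum in cKO and between 13.8% and 19.2% in Control. It was at 11.46, 9.96 and 10.22 on cKO replicates 1 to 3, against 6.97, 7.32 and 6.29 on the Control replicates, a difference of 3.69 ± 0.47 with an adjusted p of 0.0514. Without Robo4 the sums lay between 9.66 and 10.80 in cKO and between 8.86 and 9.61 in Control, a gap of 0.045. Emcn, Vwf and Esam differed by 1.39 ± 0.44, 1.27 ± 0.42 and 1.31 ± 0.45. Pecam1 and Cdh5, which define endothelium, were detected on all 6 arrays and differed by 0.58 ± 0.30 and 0.39 ± 0.38, while Kdr was detected on none. The summed level of all 10 was highest on cKO replicate 1 and lowest on Control replicate 3, as on the Mcam probes. So was the summed level of the peritubular myoid markers given below. The order is not particular to these cell types, since these arrays also stood at the ends of the leading principal component. The mean levels of the macrophage and leukocyte markers (7.77 and 6.49) and of the spermatogonia markers (8.32 and 7.37) had the same ends. Those of the Leydig and spermatid markers did not, and the Sertoli cell markers had the ends reversed. The part of endothelial cells in these results was not tested.

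Of 20 macrophage and leukocyte markers, 11 were tested and 10 of these had higher means in cKO. Their mean log2 level was between 7.46 and 7.77 in cKO and between 6.49 and 7.06 in Control, without overlap. The log2 of their summed level went the other way, between 12.15 and 12.52 in cKO and between 12.48 and 12.74 in Control. Mrc1, a mannose receptor that differed by -0.83 ± 0.34, held between 36.1% and 61.2% of the sum in cKO and between 73.2% and 82.1% in Control, and without it the sums were between 10.99 and 11.50 in cKO and between 9.99 and 10.77 in Control. The antigen presentation genes of this list were higher on every cKO array than on every Control array. Cd74 differed by 1.70 ± 0.31, H2-Ab1 by 1.54 ± 0.58, H2-Eb1 by 1.43 ± 0.35 and H2-Aa by 1.35 ± 0.42. Their adjusted p lay between 0.143 and 0.716 in limma, and the gap of H2-Ab1 was 0.068. Of the 11 tested markers, 6 lay apart with cKO higher and 1 with cKO lower, against 9.56% and 4.33% of all tested genes. Fcgr3, Fcer1g, C1qa and C1qb overlapped. The macrophage marker Adgre1 differed by 0.68 ± 0.29 with an adjusted p of 0.766. Ptprc, the pan-leukocyte marker CD45, and Itgam were detected on 0 of 6 arrays, and Cd14, Csf1r and Lyz2 on 2 cKO arrays and no Control array each. Peritubular myoid markers summed to between 13.41 and 14.33 in cKO and between 12.41 and 13.30 in Control, without overlap (6 of 6 tested genes higher). Of these genes, 4 were higher at an unadjusted p under 0.05 and 0 after adjustment in limma. Acta2 had the largest difference of them, 1.81 ± 0.41 without overlap of the groups, with an adjusted p of 0.278 in limma. Groups lay apart with cKO higher for 3 of the 6, against 9.56% of all tested genes. Myh11 differed by 0.49 ± 0.54 with overlap. Of the 9 markers on that list, Cnn1, Tagln and Lmod1 were detected on no array at their brightest probe. Leydig cell markers summed to between 11.18 and 13.07 in cKO and between 10.22 and 11.54 in Control (4 of 5 higher). Star, the cholesterol carrier of steroidogenesis, was detected on 3 cKO arrays and no Control array, at least 3.11-fold higher. Its adjusted p was 0.151 in limma, and it entered the test through its cKO arrays alone. Cyp17a1 and Insl3 differed by 1.26 ± 0.57 and 1.6 ± 0.62, Cyp11a1 by 0.37 ± 0.41 and Hsd3b6 by -0.088 ± 0.28, all with overlap. Hsd3b1 was detected on no array. Spermatogonia markers summed to between 12.41 and 12.67 in cKO and between 12.17 and 12.39 in Control (7 of 9 higher), an order of means that turned without Dazl, and spermatid markers to between 16.55 and 16.64 in cKO and between 16.21 and 16.62 in Control (7 of 9 higher). The part of these cell types was not tested either.

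**Figure D5:**
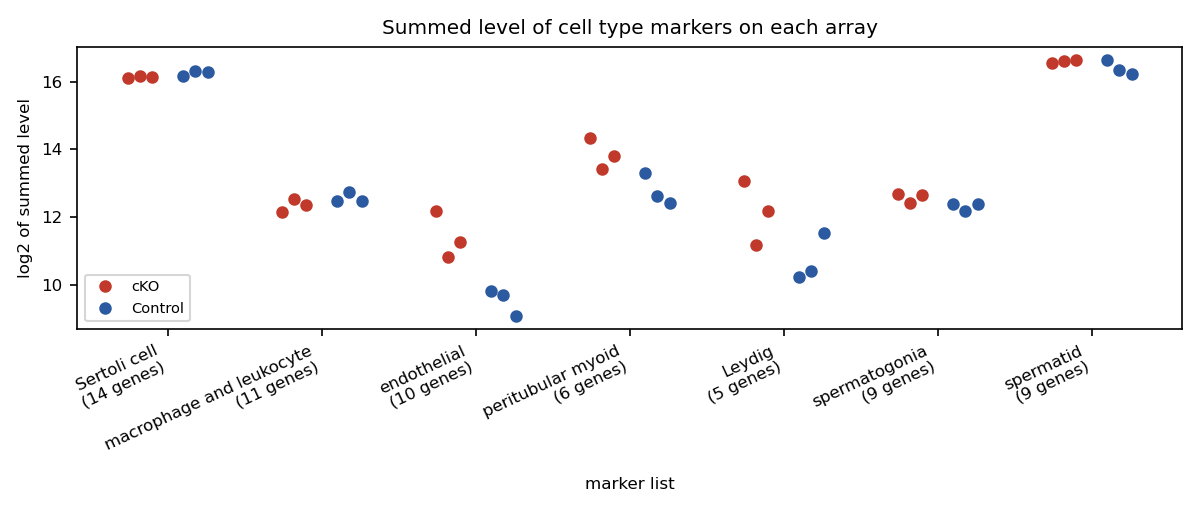
Log2 of the summed normalised level of the tested markers of 7 cell types on each array, cKO in red left of Control in blue, replicates 1 to 3 from left to right. The endothelial sums do not overlap between groups (10.82 to 12.17 in cKO, 9.08 to 9.83 in Control), a gap of 0.99 that is 0.045 without Robo4. Peritubular myoid sums do not overlap either (13.41 to 14.33 in cKO, 12.41 to 13.30 in Control), a gap of 0.10 that is 0.72 without Actg2. The spermatogonia sums lie 0.019 apart, and overlap without Dazl. The Sertoli cell sums lie between 16.10 and 16.32 on all arrays, with between 37% and 43% held by Aard.

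The genes with the profile most like that of Icam1 were found by the root mean square difference between centred log2 values over the 6 arrays, where 0 is an identical profile. They were Tagln2, an actin-binding protein, at 0.092, Cyba, an NADPH oxidase subunit, at 0.215, Cdca7 at 0.220, Dmkn at 0.224 and Cenpa, the centromere histone, at 0.224. For the Vcam1 probe ILMN_2778655 they were D17H6S56E-5 at 0.138, Cdca7 at 0.236, Icam1 at 0.271, Tagln2 at 0.294 and Cyba at 0.319. The median over 12276 genes was 1.26 for Icam1 and 1.17 for Vcam1. Mcam and Ncam1 lay at 0.874 and 0.985 from Icam1, below that median, and L1cam and Alcam at 1.32 and 1.33, above it. The measure includes the difference between the groups, by which Icam1 and Vcam1 were chosen, so a small distance mainly shares that step.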

How the data were processed

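RNA of sorted Sertoli cells was hybridised to 6 Illumina arrays, 3 cKO and 3 Control, grouped by their titles. Per the file headers, the deposited scanner tables hold a mean bead intensity per probe, the SD and number of beads, and a detection score. The detection score is a fraction between 0 and 1 that the authors' software gave each probe, per the file headers; a value over 0.95 was taken as detected. The deposited series table holds log2 values, which equal the log2 intensity minus the 75th percentile of the array, centred on the probe's median over the 6 arrays. The submitters' processing notes list BeadStudio; other steps are not given in the sources used here. Probe IDs were joined to scanner numbers through that formula, within 0.000688 for 45281 of 45281 probes. Gene symbols come from the platform annotation (34885 probes with 1 symbol, 18 with several, 10378 with none).

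Background correction and quantile normalisation of the intensities used neqc (offset 16) in limma 3.58.1 (R 4.3.3). The 21805 probes with such a score on 3 or more arrays were tested with lmFit and eBayes, two-sided, with Benjamini-Hochberg adjustment over them at 0.05. Each tested difference was taken within 1 probe. The marker sums and shares, and the choice of each gene's brightest probe, set levels of different probes side by side. They therefore depend on how strongly each probe responds, which was not measured. A bound sets the mean of the brighter group against the higher of the dimmer group's own value and the lowest detected value on each array. The fit was tested on simulated data with 3 against 3 arrays. It called 1.2% of simulated 2-fold changes, 36.4% of 4-fold and 72.2% of 8-fold changes. A gene that was not called may therefore still differ by such amounts. The main fit held the group alone and no pairing. Arrays of the same replicate number correlated in their deviations from group means at 0.26, 0.41 and 0.47. On the strength of these correlations alone, a shared number was used as a block in 1 alternative. Correlations between different numbers were not computed, so these values do not show that a number marks a pair. The number of arrays limits the precision.

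The members, gene lists, markers and motifs were chosen with earlier results of these data, or the sequences, known. Named genes are every member probe, Rb1, the defining cell type markers, and up to 4 genes of each list. These were the genes with the smallest p at their brightest tested probe. The 5 profiles nearest Icam1 and Vcam1 are named too, clone and predicted names passed over. Robo4, Emcn, Vwf, Mrc1, Dazl, Adgre1, Il1a, Acta2, Actg2, Insl3, Aard, Trf and the antigen presentation genes were named after their values were seen. So were Fcgr3, Fcer1g, C1qa, C1qb, Myh11, Cnn1, Tagln, Lmod1, Cyp17a1, Cyp11a1, Hsd3b6 and Hsd3b1. Other named exceptions are marked, apart from members of the lists given as not detected or as partners of the genes described. Alternatives changed the background offset or correction, the scaling, the source of values, the filter on dim probes, the number of probes per gene, the block and the arrays included.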

Additional observations from a re-analysis of the deposited data

How the results depend on the processing

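The differences of Icam1 and of the Vcam1 probe ILMN_2778655 were positive in 15 of 15 alternatives each, and under the threshold in 6 and 3 of them. Of the 10 tested probes of the 7 genes, 2 were called; the number was 1 with an offset of 50, without background correction and with the deposited log2 values, and 0 with no filter on dim probes, with the replicate block and without cKO replicate 1 and Control replicate 3. It was 0 whichever of the 6 arrays was left out, where fewer arrays were fitted. Over all probes, 31 were called higher; this was 12 with an offset of 50, 13 without background correction, 1 with no filter, 56 with 1 probe per gene, 0 with the replicate block, 6 without cKO replicate 1 and Control replicate 3, and from 0 to 15 with 1 array left out. No probe was called lower in any of these settings (383 were lower at an unadjusted p under 0.05 in the comparison of all 6 arrays with limma). Of the list genes, 0 were called, against 1 with median scaling, the deposited log2 values or probes detected on all 6 arrays (Itga9 each time) and 2 with 1 probe per gene (Itga9 and Actn1). The cause of these changes was not tested, also where fewer probes or arrays entered. With the replicate block the 6 genes nearest Icam1 and Vcam1 in profile lost their calls too (adjusted p from 0.0835 to 0.113). Differences near 0 changed sign: the Ncam1 probe ILMN_3102825 was at 0.037 with median scaling and 0.035 with the deposited values. Without cKO replicate 1 and Control replicate 3 it was -0.34 and L1cam was -0.40. With 1 array left out it ran from -0.27 to 0.16, Alcam from -0.079 to 0.52, L1cam from -0.26 to 0.17 and St8sia2 from -0.58 to 0.14. The median of the other immunoglobulin adhesion molecules was 0.14 with an offset of 50, 0.072 with either other filter and from 0.10 to 0.45 with 1 array left out. In an alternative chosen after seeing the data, the marker with the largest share was left out of each sum. The difference between the mean log2 sums was 0.80 for macrophage and leukocyte markers (-0.23 with Mrc1), -0.085 for spermatogonia markers (0.26 with Dazl) and 0.96 for endothelial markers (1.88 with Robo4). Without Actg2 the peritubular myoid sums were between 12.25 and 13.50 in cKO and between 11.20 and 11.52 in Control. Without Insl3 the Leydig sums were between 9.612 and 11.20 in cKO and between 8.747 and 9.602 in Control. Sertoli cell and spermatid sums overlapped between groups with and without their largest marker. Probes near background, such as those of Icam2 and 5 of the 8 Vcam1 and Ncam1 probes, limit what these arrays show.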

Other observations

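Probes of 1 gene disagreed for several genes named above, as they did for Vcam1 and Ncam1; the values are given without a test of the disagreement. The 3 tested probes of Chl1, a relative of L1cam chosen after its values were seen, differed by -2.39 ± 0.89, 1.32 and -0.27. The first of these Chl1 probes was at 5.68, 7.11 and 9.01 on cKO replicates 1 to 3, against 9.80, 8.45 and 10.71 on the Control replicates. Of the other Irf1 probes, 1 differed by 2.63 with an adjusted p of 0.111 in limma and 2 by 0.50 and 0.49. The other Jam2 probes differed by 0.62, 0.0065, -0.086 and -0.59, against 1.03 for the brightest. The Actn4 probes, chosen after their values were seen, were at -1.16 and 1.26; the probe at 1.26 was not well above background on any Control array, where the bound is at least 1.77-fold higher in cKO. The related Actn1 had 1 tested probe at 2.12. The second Nrp1 probe differed by 1.25, close to the 1.30 of the brightest.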
